A study of Mus musculus with 32 samples.

Results

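RNA polymerase II phosphorylated on serine 2 of its C-terminal repeats (RNAP-ser2) was mapped by chromatin immunoprecipitation and sequencing (ChIP-seq) in mouse embryonic stem (ES) cells that lack Taf5l or Taf6l and in wild-type cells. The members described here are the peaks of the 3 deposited RNAP-ser2 peak lists on chromosomes 1 to 19, which belong to 3 of the 32 samples of the series. They number 30423 in Taf5l-KO cells, 40620 in Taf6l-KO cells and 41488 in wild-type cells, together 112531 peaks. The other samples of the series are further polymerase, histone-mark and transcription-factor immunoprecipitations, pulldowns of tagged TAF5L and TAF6L, and inputs. All 3 genotypes are the J1 cell line, grown in serum with the cytokine LIF and fixed with formaldehyde, and the same antibody was used in each. The Taf5l-KO group lacks Taf5l, the Taf6l-KO group lacks Taf6l, and the wild-type group carries neither knockout. Each genotype is 1 library, the number of clones behind each knockout is not given in the sources used here, and the labelled cell type and the knocked-out genes were not checked because peaks were not assigned to genes.

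The C-terminal domain of RNA polymerase II is a long series of short repeats whose serines are phosphorylated in turn as transcription proceeds. Serine 5 is phosphorylated mostly near the start of a gene by the kinase of the general factor TFIIH, and serine 2 mostly during elongation by P-TEFb and related kinases, so that the serine 2 form is best known from gene bodies and from the ends of genes. H3K4me3, trimethylation of lysine 4 of histone H3, marks promoters of active and poised genes, and its peaks serve here as the map of promoters. TAF5L and TAF6L are relatives of subunits of the general factor TFIID and belong to the SAGA family of histone acetyltransferase coactivators.

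Depth differed between the libraries and sets how far the lists can be compared. After removal of duplicates, the Taf5l-KO library held 5390622 tags, the Taf6l-KO library 3842867 and the wild-type library 6295522, and 81.4%, 87.8% and 83.6% of all tags were duplicates. The inputs held 6245652, 5923469 and 7771755 unique tags. The shallowest library, Taf6l-KO, nevertheless had the most strong peaks: 1298 in Taf5l-KO, 4618 in Taf6l-KO and 1789 in wild-type cells reached a −log10 q of 5, where q is the peak caller's adjusted p-value. With 1 library per genotype no test between genotypes was possible, and every difference below is between libraries. The ranges in parentheses after percentages are exact 95% binomial (Clopper-Pearson) intervals; these cover only counting error, and neighbouring peaks are not independent.

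The first question was whether the peaks lay at promoters or elsewhere. A peak was placed at a promoter when at least 1 bp overlapped an H3K4me3 peak of the same genotype. Promoters held 10230 peaks in Taf5l-KO cells, 14028 in Taf6l-KO cells and 10954 in wild-type cells. Elsewhere there were 20193 peaks in Taf5l-KO cells, 26592 in Taf6l-KO cells and 30534 in wild-type cells. In the lists as deposited the number at promoters was thus below wild type in Taf5l-KO cells (0.934 times) and above it in Taf6l-KO cells (1.28 times), while the number elsewhere was below wild type in both knockouts (0.661 and 0.871 times). The promoter share was 33.6% (33.1 to 34.2) in Taf5l-KO cells, 34.5% (34.1 to 35.0) in Taf6l-KO cells and 26.4% (26.0 to 26.8) in wild-type cells. When each list was limited to its 30423 peaks of highest −log10 q, the shares were 33.6%, 42.0% and 31.0%, so that the gap between Taf5l-KO and wild-type cells narrowed while that of Taf6l-KO cells widened. At that length the promoter peaks numbered 10230 in Taf5l-KO, 12791 in Taf6l-KO and 9429 in wild-type cells. Taf5l-KO was then above wild type, but lists of equal length have unequal thresholds. The lowest −log10 q kept was 1.01 in Taf5l-KO, 1.52 in Taf6l-KO and 1.71 in wild-type cells. At a shared −log10 q of at least 5 the promoter peaks numbered 1132, 4369 and 1411 in the same order, with Taf5l-KO below wild type. The side on which Taf5l-KO lay thus depended on the rule.

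**Figure D1:**
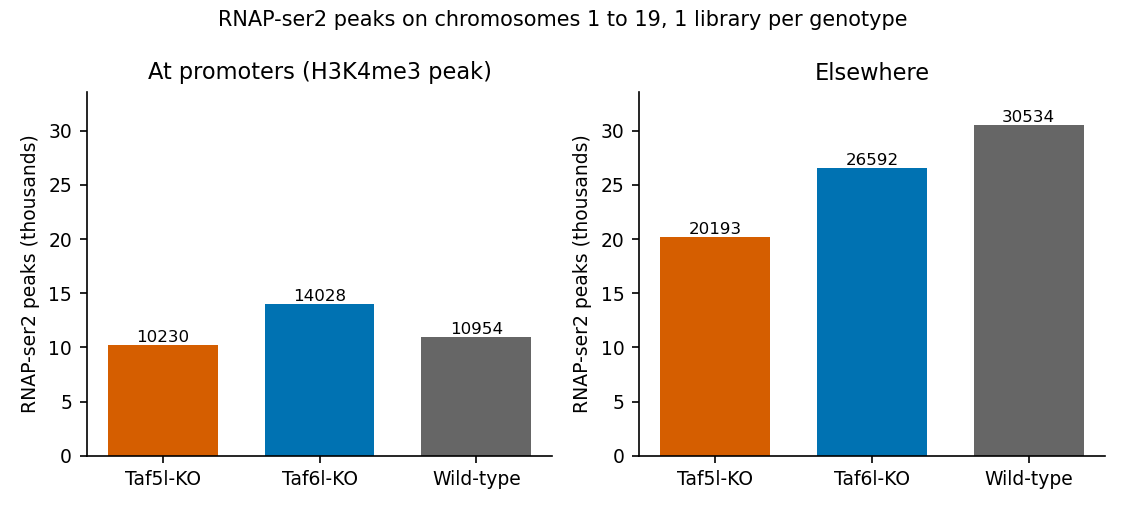
Number of RNAP-ser2 peaks on chromosomes 1 to 19 at promoters, left, and elsewhere, right, in Taf5l-KO, Taf6l-KO and wild-type cells, with 1 library per bar and the count above each bar. At promoters Taf6l-KO is highest with 14028 peaks, and elsewhere both knockouts, with 20193 and 26592, are below the 30534 of wild-type cells.

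Promoter peaks were the stronger class within each list. Their median fold enrichment over the local background, a value given per peak by the authors, was 4.06 in Taf5l-KO, 4.54 in Taf6l-KO and 4.13 in wild-type cells, against 3.69, 3.49 and 3.71 for peaks elsewhere in the same lists. Of the 10% of peaks with the highest fold enrichment in each list, 72.1% lay at promoters in Taf5l-KO, 94.9% in Taf6l-KO and 62.9% in wild-type cells. Of the weakest 10%, 27.6%, 10.9% and 20.3% did. The single strongest peak was elsewhere in Taf5l-KO (36.1) and Taf6l-KO cells (51.9). In wild-type cells the strongest peak at promoters (42.5) and the strongest elsewhere (42.3) were nearly equal.

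The split between promoters and the rest was present on each chromosome. The promoter share was above wild type on 19 of 19 chromosomes in Taf5l-KO cells, by 4.73 to 9.40 percentage points, and on 19 of 19 in Taf6l-KO cells, by 6.18 to 9.64 points. The number of peaks relative to wild type ranged between 0.657 and 0.814 in Taf5l-KO cells and between 0.929 and 1.06 in Taf6l-KO cells. Chromosomes of 1 library are not replicates, and this range describes only how evenly the difference was spread.

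Seen from the side of the promoters, a fixed set of H3K4me3 peaks could be asked whether it carried RNAP-ser2. Of the wild-type H3K4me3 peaks, 23949 were overlapped by H3K4me3 peaks of both knockouts. An RNAP-ser2 peak overlapped 38.9% of them (38.3 to 39.5) in Taf5l-KO cells, 54.1% (53.5 to 54.8) in Taf6l-KO cells and 38.6% (38.0 to 39.2) in wild-type cells. The shares of Taf5l-KO and wild-type cells were close and their intervals overlapped, though both were taken on the same promoters and were not tested against each other. Taf6l-KO cells had the highest share although their library was the shallowest. With lists of equal length the shares were 38.9%, 50.1% and 34.02%. Counting only RNAP-ser2 peaks that reached a −log10 q of 5, the shares were 4.77% in Taf5l-KO, 18.1% in Taf6l-KO and 5.85% in wild-type cells.

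The same 23949 promoters were then sorted by the list or lists in which they carried RNAP-ser2. The mark was listed in all 3 genotypes at 6749 promoters (28.2%) and in none at 9493 (39.6%). It was listed in Taf6l-KO cells alone at 2883 promoters (12.0%), in Taf5l-KO cells alone at 579 (2.42%) and in wild-type cells alone at 675 (2.82%). Both knockouts but not wild-type cells carried it at 1743 promoters (7.28%), Taf6l-KO and wild-type cells at 1587 (6.63%), and Taf5l-KO and wild-type cells at 240 (1.00%). Promoters with RNAP-ser2 in a single genotype were therefore mostly of Taf6l-KO.

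The share of promoters with RNAP-ser2 was higher where H3K4me3 was stronger. The promoters were divided into 10 groups of equal size by wild-type H3K4me3 fold enrichment. In group 1, the weakest, 10.7% carried RNAP-ser2 in Taf5l-KO, 17.6% in Taf6l-KO and 10.9% in wild-type cells. In group 10, the strongest, the shares were 65.6% (63.7 to 67.5) in Taf5l-KO, 81.9% (80.3 to 83.4) in Taf6l-KO and 58.0% (55.9 to 59.9) in wild-type cells. Taf6l-KO was highest in all 10 groups. Taf5l-KO crossed wild type along this axis. In group 4, 24.5% (22.8 to 26.2) of promoters carried RNAP-ser2 in Taf5l-KO cells against 31.98% (30.1 to 33.9) in wild-type cells, and from group 7 upward Taf5l-KO was above wild type, with 56.0% against 49.4% in group 8.

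**Figure D2:**
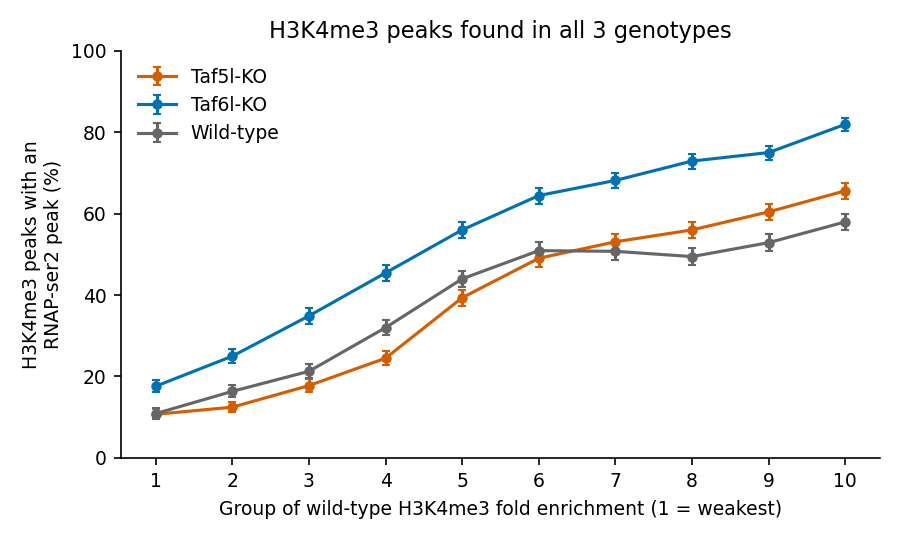
Share (%) of the 23949 H3K4me3 peaks found in all 3 genotypes that carried an RNAP-ser2 peak, in 10 groups of wild-type H3K4me3 fold enrichment (1 is the weakest). Points are single libraries and bars are exact 95% binomial intervals. Taf6l-KO is highest throughout and reaches 81.9% in group 10, while the Taf5l-KO line starts level with wild type, runs below it and ends above it (65.6% against 58.0%).

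Peaks outside promoters lay at broadly similar distances from the nearest H3K4me3 peak of their genotype. The median distance was 12.8 kb in Taf5l-KO, 14.3 kb in Taf6l-KO and 12.3 kb in wild-type cells. Of these peaks, 25.7%, 23.3% and 25.8% lay within 5 kb of an H3K4me3 peak. Beyond 100 kb lay 3.28% (3.04 to 3.53) in Taf5l-KO, 6.05% (5.77 to 6.34) in Taf6l-KO and 3.57% (3.36 to 3.78) in wild-type cells. Taf6l-KO thus had the largest share of peaks far from any H3K4me3 peak. Its H3K4me3 list was also the shortest, with 30701 peaks in Taf5l-KO, 28093 in Taf6l-KO and 31027 in wild-type cells covering 32.3, 28.5 and 34.03 Mb, and the part of this was not tested. Of the Taf6l-KO peaks beyond 100 kb only 6.53% belonged to a run of neighbouring peaks, against 13.3% in Taf5l-KO and 10.4% in wild-type cells.

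Widths separated the 2 knockouts. The median peak width was 541 bp in Taf5l-KO, 395 bp in Taf6l-KO and 464 bp in wild-type cells, with quartiles of 276 and 931 bp, 175 and 697 bp, and 229 and 795 bp. Taf5l-KO was wider than wild type on 19 of 19 chromosomes and Taf6l-KO narrower on 19 of 19. The shortest width the peak caller allowed was the fragment size it modelled, 158 bp in Taf5l-KO, 133 bp in Taf6l-KO and 136 bp in wild-type cells, and 9.36%, 16.2% and 9.94% of peaks had exactly that width. The part of these settings and of depth in the widths was not tested. At promoters the median widths were 654, 582 and 573.5 bp, so that Taf6l-KO promoter peaks were about as wide as those of wild type. Elsewhere they were 493, 300 and 428 bp, and the narrow Taf6l-KO peaks lay there.

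Broad peaks carried a large part of the covered sequence. Peaks wider than 2 kb numbered 2251 in Taf5l-KO (7.40% of peaks), 1282 in Taf6l-KO (3.16%) and 2654 in wild-type cells (6.40%). They made up 35.5%, 19.7% and 35.8% of all sequence under RNAP-ser2 peaks, which came to 26.4 Mb, 24.1 Mb and 32.4 Mb. Peaks over 10 kb numbered 116 in Taf5l-KO, 37 in Taf6l-KO and 163 in wild-type cells, and the widest measured 32125, 24485 and 29683 bp. Most peaks wider than 2 kb belonged to runs, 72.2% in Taf5l-KO, 69.8% in Taf6l-KO and 78.8% in wild-type cells.

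Serine 2 phosphorylation is spread over gene bodies, and runs of neighbouring peaks were therefore examined as units. A run was defined as at least 3 successive peaks with gaps of at most 5 kb. There were 2452 runs in Taf5l-KO, 2727 in Taf6l-KO and 3614 in wild-type cells. They took in 38.8% (38.2 to 39.3) of the Taf5l-KO peaks, 31.5% (31.0 to 31.9) of the Taf6l-KO peaks and 45.9% (45.4 to 46.4) of the wild-type peaks. The share was below wild type on 19 of 19 chromosomes in each knockout, and the difference, knockout minus wild type, ranged between -13.7 and -1.97 percentage points in Taf5l-KO and between -20.1 and -9.46 points in Taf6l-KO. Summed over the genome, the runs spanned 31.4 Mb in Taf5l-KO, 29.0 Mb in Taf6l-KO and 46.7 Mb in wild-type cells.

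Long runs showed a wide gap between the lists as deposited. Runs of at least 10 peaks numbered 146 in Taf5l-KO, 142 in Taf6l-KO and 317 in wild-type cells, and runs of at least 20 peaks numbered 8, 9 and 31. The longest had 36 peaks in Taf5l-KO, 31 in Taf6l-KO and 61 in wild-type cells. The gap of Taf5l-KO was not present at equal list length. With all lists limited to 30423 peaks, runs of at least 10 peaks numbered 146 in Taf5l-KO, 50 in Taf6l-KO and 142 in wild-type cells, and the shares of peaks in runs were 38.8%, 25.01% and 39.9%. Taf5l-KO was then close to wild type, and Taf6l-KO was below it.

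**Figure D3:**
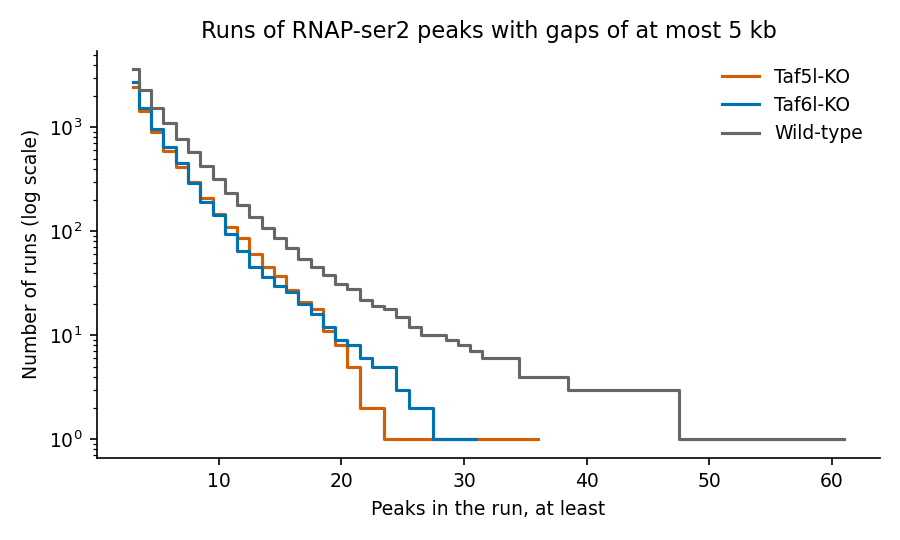
Number of runs (log scale) with at least the number of RNAP-ser2 peaks given on the horizontal axis, for the 3 lists as deposited on chromosomes 1 to 19. Both knockout lines lie below wild type at every size, with 146 and 142 runs of at least 10 peaks against 317, and the wild-type line reaches 61 peaks.

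Taf6l-KO runs were the shortest and the least filled. The median span was 9.89 kb in Taf5l-KO, 8.39 kb in Taf6l-KO and 9.56 kb in wild-type cells, and the longest spans were 134, 95.3 and 160 kb. Peaks filled 44.2% of the summed span in Taf5l-KO, 34.9% in Taf6l-KO and 42.1% in wild-type cells. An H3K4me3 peak overlapped 54.2% of the Taf5l-KO runs, 56.4% of the Taf6l-KO runs and 50.7% of the wild-type runs. Of the peaks outside promoters 48.0%, 39.0% and 51.9% belonged to runs, against 20.6%, 17.2% and 29.1% of the peaks at promoters.

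Runs with a promoter at a single end were used to see where along them the signal was strongest. These were runs of at least 5 peaks with H3K4me3 within 2 kb of a single end and none in the rest of the run beyond the nearest of 3 equal parts, and numbered 255 in Taf5l-KO, 262 in Taf6l-KO and 370 in wild-type cells. The peak of highest fold enrichment lay in the part nearest the promoter in 57.6% (51.3 to 63.8) of Taf5l-KO runs, in 71.0% (65.1 to 76.4) of Taf6l-KO runs and in 50.5% (45.3 to 55.7) of wild-type runs. It lay in the part farthest from it in 19.6% (14.9 to 25.02), 14.5% (10.5 to 19.4) and 25.1% (20.8 to 29.9). The strongest peak was thus nearest the promoter most often in the Taf6l-KO list, a difference between single libraries that has no replicate check. The choice of runs left H3K4me3 out of the farther parts, and promoter peaks were the stronger class in each list. These shares therefore cannot separate position along the run from the strength of promoter peaks. Position of the widest peak differed less, with 40.4%, 43.5% and 37.0% in the nearest part.

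Wild-type runs were then followed into the knockouts. A run of the knockout overlapped 48.0% of the 3614 wild-type runs in Taf5l-KO cells (1735 runs) and 47.8% in Taf6l-KO cells (1726 runs). At least 1 knockout peak lay in 85.2% of wild-type runs in Taf5l-KO and in 85.9% in Taf6l-KO cells, so most runs without a knockout run still held single peaks. The share depended on size. For runs of 3 or 4 peaks it was 30.4% in Taf5l-KO and 31.9% in Taf6l-KO cells, for runs of 5 to 9 peaks 66.0% and 63.5%, and for the 317 runs of at least 10 peaks 93.4% (90.1 to 95.9) and 90.9% (87.1 to 93.8). Long wild-type runs were therefore rarely without a counterpart by this rule. It asks for only 1 bp of shared span, which a longer span meets more readily. The part of span length in this rise was not tested.

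Inside the wild-type runs the knockout lists were thinner. The spans held 10105 Taf5l-KO peaks and 11004 Taf6l-KO peaks, against 19039 wild-type peaks. Fewer peaks than in wild type were counted in 88.6% of runs in Taf5l-KO and in 83.5% in Taf6l-KO cells, a direction favoured by the choice of spans on the wild-type list. Taf5l-KO peaks covered 27.7% of the summed span and Taf6l-KO peaks 19.7%, against 42.1% for wild-type peaks. Runs with an H3K4me3 peak overlapped a knockout run more often (53.3% in Taf5l-KO and 57.0% in Taf6l-KO) than runs without one (42.6% and 38.3%). In the other direction, 73.2% of the Taf5l-KO runs and 68.1% of the Taf6l-KO runs overlapped a wild-type run, and 133 and 173 held no wild-type peak at all.

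The 3 wild-type runs with the most peaks, chosen on the wild-type list and so favouring lower knockout counts, are given as descriptions. The longest wild-type run, at chr7:140156044-140315842 (mm9, as are all positions here), spanned 160 kb and held 44 peaks in Taf5l-KO, 49 in Taf6l-KO and 61 in wild-type cells. Peaks covered 41.3% of it in Taf5l-KO, 24.0% in Taf6l-KO and 48.7% in wild-type cells, so that Taf6l-KO had more peaks than Taf5l-KO but the least covered sequence. The second, at chr4:130219225-130344908, held 38 peaks in Taf5l-KO, 44 in Taf6l-KO and 47 in wild-type cells and was covered to 40.7%, 18.5% and 59.9%. The third, at chr14:22280838-22404876, held 31, 18 and 47 peaks and was covered to 23.0%, 9.68% and 43.9%. All 3 carried H3K4me3 and total polymerase (RNAP) peaks in each genotype.

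**Figure D4:**
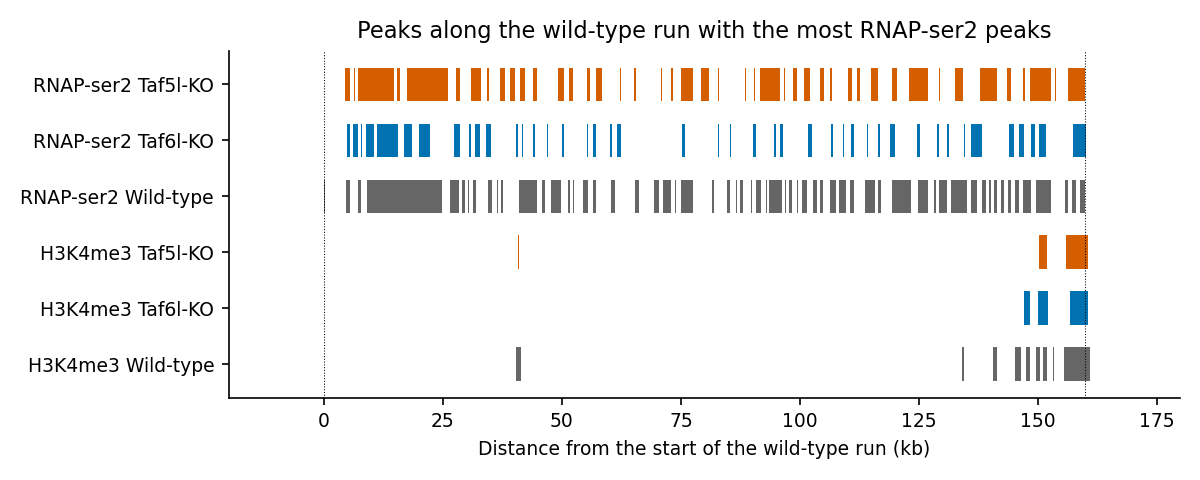
Peaks along the wild-type run with the most RNAP-ser2 peaks, on chromosome 7, drawn to scale as distance from the start of the run (kb), with RNAP-ser2 above and H3K4me3 below for Taf5l-KO, Taf6l-KO and wild-type cells. Blocks are peaks and dotted lines mark the ends of the run. The 3 lists hold 44, 49 and 61 RNAP-ser2 peaks, which are narrower and leave wider gaps in Taf6l-KO, and the broadest H3K4me3 peaks lie at the right end.

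The leading runs of each knockout are described next. They were chosen on the list of that knockout, which favours higher counts in it. The Taf6l-KO run with the most peaks, at chr1:136452605-136547904, held 17 peaks in Taf5l-KO, 31 in Taf6l-KO and 17 in wild-type cells. Those peaks covered 82.8%, 54.4% and 79.6% of it, so the larger number in Taf6l-KO went with a smaller covered part. A second Taf6l-KO run, at chr19:4740677-4811999, held 15, 27 and 13 peaks and was covered to 78.7%, 55.5% and 75.3%. The Taf5l-KO run with the most peaks, at chr1:183816557-183950768, held 36 peaks in Taf5l-KO, 35 in Taf6l-KO and 42 in wild-type cells, and was covered to 56.9% in Taf5l-KO and 56.5% in wild-type cells but to 24.8% in Taf6l-KO. At these places the count of peaks and the covered sequence ranked the genotypes differently, but this did not hold at every leading run. The second Taf5l-KO run, at chr2:153166659-153235199, held 23 peaks in Taf5l-KO, 13 in Taf6l-KO and 22 in wild-type cells. It was covered to 31.6%, 17.0% and 26.4%, the same order as the counts. The third wild-type run, given above, also had the same order by both measures.

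Of the 3614 wild-type runs, 1392 (38.5%) overlapped a run in neither knockout, and 263 held no peak of either knockout. The largest wild-type run without any knockout peak, at chr8:83328072-83350607, held 8 peaks and no H3K4me3 peak, and 7 wild-type peaks of serine 5-phosphorylated polymerase (RNAP-ser5) overlapped it. The largest Taf5l-KO run without a wild-type peak, at chr9:100848598-100862681, held 7 peaks, again without H3K4me3. The largest such run of Taf6l-KO, at chr9:3000041-3035248 near the start of the chromosome, held 18 peaks with a fold enrichment of at most 1.38, and 18 regions of tagged TAF6L (TAF6L-FB, where FB is a Flag-Biotin tag) overlapped it as well. So did 7 RNAP and 11 RNAP-ser5 peaks of wild-type cells and 6 RNAP-ser5 peaks of Taf6l-KO cells. Its fold enrichment was far under the Taf6l-KO median of 4.54 at promoters and 3.49 elsewhere.

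Overlap between the genotypes was split by place next. Of all 41488 wild-type peaks, 36.4% were overlapped by a Taf5l-KO peak and 38.3% by a Taf6l-KO peak. At promoters 7672 of 10954 wild-type peaks were overlapped in Taf5l-KO cells, or 70.0% (69.2 to 70.9), and 8925 in Taf6l-KO cells, or 81.5% (80.7 to 82.2). Elsewhere the numbers were 7450 of 30534 in Taf5l-KO, or 24.4% (23.9 to 24.9), and 6952 in Taf6l-KO, or 22.8% (22.3 to 23.2). Promoter peaks were thus found again far more often than the rest in each knockout, and on each of the 19 chromosomes the gap was at least 41.0 percentage points in Taf5l-KO and 49.0 in Taf6l-KO. Taf6l-KO peaks overlapped a larger share of the promoter peaks than Taf5l-KO peaks on 19 of 19 chromosomes, and a larger share of the peaks elsewhere on 6 of 19.

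The difference between places was present at each level of strength and width. Wild-type peaks were divided into 10 groups of equal size by fold enrichment. In group 1, the weakest, 47.0% of promoter peaks were overlapped in Taf5l-KO and 69.0% in Taf6l-KO cells, against 16.1% and 14.6% of peaks elsewhere. In group 10, the strongest, the shares were 86.8% and 93.1% at promoters and 46.6% and 45.3% elsewhere. Within each of the 10 groups the promoter share was the higher one. The pattern by width was alike, with 43.2% and 62.1% at promoters against 9.04% and 9.37% elsewhere in the narrowest of 5 width groups, and 89.7% and 92.3% against 62.7% and 58.5% in the widest.

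**Figure D5:**
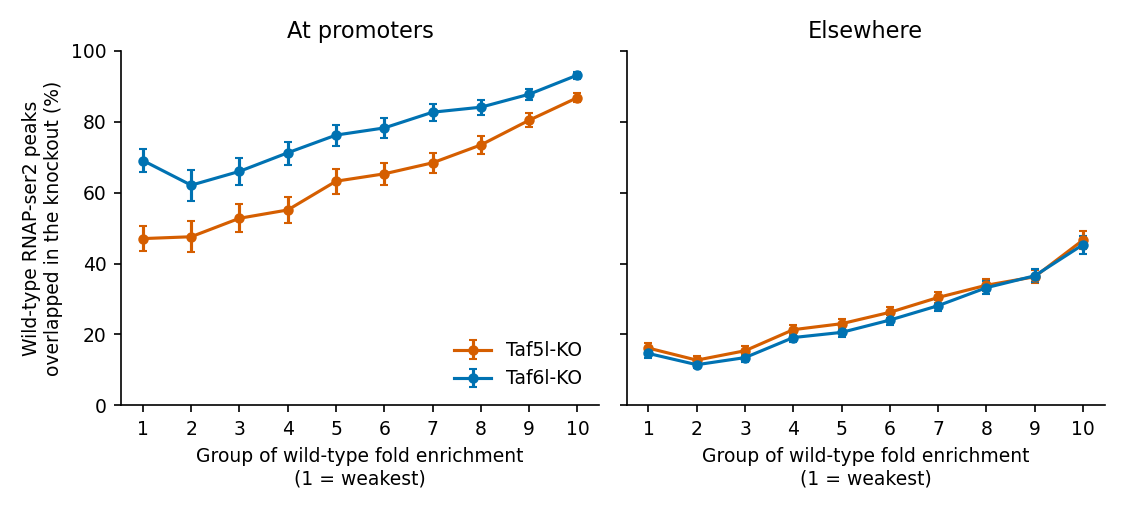
Share (%) of wild-type RNAP-ser2 peaks overlapped by a peak of Taf5l-KO or Taf6l-KO cells, in 10 groups of wild-type fold enrichment (1 is the weakest), at promoters on the left and elsewhere on the right, with exact 95% binomial intervals. At promoters Taf6l-KO lies above Taf5l-KO in every group, and elsewhere both lines run together from 16.1% and 14.6% to 46.6% and 45.3%.

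Membership of a run went with overlap outside promoters. Of wild-type peaks elsewhere, 36.0% of those in runs were overlapped in Taf5l-KO and 30.7% in Taf6l-KO cells, against 11.9% and 14.2% of those outside runs. At promoters the pattern differed between the knockouts. In Taf5l-KO cells 72.6% of promoter peaks in runs and 69.0% of those outside runs were overlapped, whereas in Taf6l-KO cells the shares were 74.8% in runs and 84.2% outside. The state of H3K4me3 went with it too, since 73.2% and 86.8% of wild-type promoter peaks were overlapped where the H3K4me3 peak was also listed in the knockout, and 41.0% in each knockout where it was not.

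Peaks of the knockouts that no wild-type peak overlapped were also divided by place. In all, a wild-type peak lay over 50.0% of the peaks in Taf5l-KO and over 43.2% in Taf6l-KO cells. The share was 70.6% in Taf5l-KO and 60.9% in Taf6l-KO at promoters, and 39.5% and 33.9% elsewhere. Outside the wild-type list lay 3012 promoter peaks of Taf5l-KO and 5478 of Taf6l-KO. A Taf6l-KO peak overlapped 1890 of these Taf5l-KO peaks, or 62.7% (61.0 to 64.5). A Taf5l-KO peak overlapped 1879 of these Taf6l-KO peaks, or 34.3% (33.0 to 35.6). The overlapped numbers were thus nearly equal, and the shares differed because more Taf6l-KO promoter peaks lay outside the wild-type list. Of the 12211 and 17584 peaks elsewhere that were outside the wild-type list, only 12.6% and 11.2% were listed in the other knockout. Over promoters and elsewhere together the shares were 22.5% in Taf5l-KO and 16.7% in Taf6l-KO.

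Joined over the 3 genotypes, the peaks formed 73787 regions, of which 14.4% were listed in all 3. Among the 18344 regions that touched H3K4me3 of any genotype, 39.3% were listed in all 3 genotypes, 22.1% in Taf6l-KO alone, 7.22% in Taf5l-KO alone and 9.08% in wild type alone. Among the 55443 other regions, 6.17% were listed in all 3, 27.4% in Taf6l-KO alone, 18.9% in Taf5l-KO alone and 35.7% in wild type alone. Regions found in a single list made up most of the sites outside promoters.

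Single sites illustrate both ends. The strongest wild-type promoter peak overlapped in both knockouts, at chr11:87275502-87276194, had a fold enrichment of 22.9 in Taf5l-KO, 17.5 in Taf6l-KO and 42.5 in wild-type cells. The next, at chr1:72290615-72291171, had 14.4, 15.3 and 41.9, and the third, at chr11:87261825-87262662, had 18.98, 18.4 and 37.6. These values are given per list by the peak caller and depend on depth and input, so they were not compared between genotypes. All 3 sites overlapped peaks of RNAP and RNAP-ser5 in each genotype and a TAF6L-FB region. The strongest promoter peaks overlapped in neither knockout were weaker within the wild-type list, at chr4:88451201-88451424 (10.8), chr16:16213090-16213388 (9.31) and chr4:88421939-88422156 (8.39), and were 218 to 299 bp wide.

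Outside promoters the strongest wild-type peaks overlapped in both knockouts were a site on chromosome 18 (26.6 in Taf5l-KO, 35.2 in Taf6l-KO and 42.3 in wild-type cells), chr19:18807171-18807464 (23.0, 38.9 and 36.7) and chr3:96177704-96178675 (17.2, 29.1 and 33.4). Peaks of RNAP and RNAP-ser5 lay over all 3 in each genotype, and no TAF6L-FB region did. The site on chromosome 3 overlapped an H3K4me3 peak in Taf6l-KO cells, though none in wild-type cells. The strongest overlapped in neither knockout were chr7:20462380-20462786 (10.2), chr2:167951096-167951530 (9.51) and chr13:67515974-67516353 (8.72), all with RNAP and RNAP-ser5 in wild-type cells. In Taf5l-KO cells RNAP was listed at the site on chromosome 7, both forms on chromosome 2 and RNAP-ser5 on chromosome 13. In Taf6l-KO cells neither form was listed at any of them.

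The upper quartile of fold enrichment was 4.67 at promoters and 4.04 elsewhere in Taf5l-KO, and 5.76 and 3.84 in Taf6l-KO. The leading knockout peaks outside the wild-type list were above these values but below the strongest peaks of their lists. At promoters they were chr8:126529898-126531684 (10.4) and chr2:37558300-37558981 (8.42) in Taf5l-KO, and chr14:48091719-48092772 (8.89) and chr6:127059367-127059656 (8.78) in Taf6l-KO. The last 3 of these carried an H3K4me3 and an RNAP peak in all 3 genotypes, whereas the first had neither in wild-type cells. Elsewhere they were chr3:79046553-79047438 (7.76) and chr9:7958172-7958358 (7.62) in Taf5l-KO, and chr3:57835494-57835788 (9.95) and chr10:62425279-62425425 (8.08) in Taf6l-KO.

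The other polymerase lists of the same genotype were laid over the RNAP-ser2 peaks. At promoters an RNAP peak overlapped 85.4% of the Taf5l-KO peaks, 89.0% of the Taf6l-KO peaks and 84.6% of the wild-type peaks. Elsewhere the shares were 14.1%, 14.5% and 16.7%. Total polymerase was therefore listed at most RNAP-ser2 promoter peaks and at a minority of the others in each genotype. An RNAP-ser5 peak overlapped 66.7%, 50.8% and 60.3% at promoters and 31.0%, 7.52% and 33.8% elsewhere. The low Taf6l-KO values stand beside RNAP-ser5 libraries of 8807133 unique tags in Taf5l-KO, 1702363 in Taf6l-KO and 3871824 in wild-type cells, and the part of depth was not tested.

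Runs of the 2 phosphorylated forms coincided at most RNAP-ser2 runs in Taf5l-KO and wild-type cells but not in Taf6l-KO cells, where the RNAP-ser5 library was the shallowest. An RNAP-ser5 run overlapped 55.6% of the RNAP-ser2 runs in Taf5l-KO, 8.25% in Taf6l-KO and 61.6% in wild-type cells, and an RNAP run overlapped 26.2%, 31.9% and 30.3%. The promoter share of the RNAP list itself was 70.7% in Taf5l-KO, 65.6% in Taf6l-KO and 54.8% in wild-type cells, and that of the RNAP-ser5 list 38.3%, 48.0% and 19.04%. A promoter share above wild type in both knockouts was therefore present in the other polymerase lists as deposited. Those lists were also shorter in both knockouts. They held 19758 RNAP peaks in Taf5l-KO, 25589 in Taf6l-KO and 28007 in wild-type cells, and 21493, 15873 and 43394 RNAP-ser5 peaks. These lists were not limited to equal length, and the part of list length was not tested.

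Wild-type RNAP-ser2 peaks overlapped in both knockouts were compared with those overlapped in neither, 2 comparisons that share the wild-type library. Both knockouts overlapped 26.5% of the wild-type peaks and neither overlapped 51.8%. At promoters 7121 peaks (65.0%) were overlapped in both and 1478 (13.5%) in neither, and elsewhere 3870 (12.7%) in both and 20002 (65.5%) in neither. A wild-type RNAP peak lay over 96.0% of the promoter peaks overlapped in both and over 42.0% of those overlapped in neither. Elsewhere it lay over 55.2% (53.6 to 56.8) and 7.23% (6.88 to 7.60). A wild-type RNAP-ser5 peak lay over 78.9% and 21.1% of the peaks elsewhere. Peaks overlapped in neither knockout thus carried total polymerase less often. Overlap in the knockouts also rose with peak width and fold enrichment, as given above, and their part in this contrast was not tested.

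Histone acetylation and tagged TAF6L were found mainly at the promoter peaks. An H3K9ac peak, acetylation of lysine 9 of histone H3, overlapped 0.802% of the Taf5l-KO promoter peaks, 5.47% of the Taf6l-KO promoter peaks and 24.9% of the wild-type promoter peaks, but the H3K9ac lists themselves held 110, 880 and 4024 peaks. Outside promoters the overlap was 3, 2 and 14 peaks. TAF6L-FB regions came from separate pulldowns of tagged TAF6L and were not mapped in these 3 genotypes. The pulldown lists were joined, and regions that overlapped a BirA control peak were removed. This single set overlapped 4.80% of the Taf5l-KO, 4.18% of the Taf6l-KO and 4.11% of the wild-type promoter peaks. It overlapped under 1% of the other peaks in each list. Among wild-type promoter peaks it overlapped 4.94% (4.45 to 5.47) of those found in both knockouts and 2.44% (1.71 to 3.36) of those found in neither.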

How the data were processed

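ChIP-seq peak lists of RNAP-ser2 in Taf5l-KO, Taf6l-KO and wild-type J1 cells were used, 1 library each, with the H3K4me3, RNAP, RNAP-ser5, H3K9ac, Oct4 and TAF6L-FB lists beside them. The submitters' processing notes name Bowtie2 2.3.2, deepTools 2.5.3 and the build mm9. Broad peaks were called with MACS2 2.1.1.20160309 per library against an input of the same genotype, with 1 tag kept per position, q cutoffs of 0.05 and 0.1 and the larger library scaled down, per the file headers. The authors deposited the pileup (a signal that depends on depth), the fold enrichment (a ratio to local background) and the −log10 p and −log10 q of each peak. The widths were taken from the deposited start and end. These values were used to order peaks, to set thresholds and to describe peaks within a list. Counts and shares at a shared −log10 q were also set side by side between lists, although q depends on depth and input.

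Peaks on chromosomes 1 to 19 were kept, and 1323 Taf5l-KO, 2155 Taf6l-KO and 1824 wild-type peaks elsewhere were set aside. Overlap means at least 1 bp. Groups came from the labels. No test between genotypes was made. Intervals are exact 95% binomial intervals. The members, lists and definitions were chosen with earlier results of these data known. Regions named are, per genotype, the 3 runs with the most peaks; the 3 strongest wild-type peaks overlapped in both knockouts and in neither, at promoters and elsewhere; the 2 strongest knockout peaks outside the wild-type list; and the 2 largest runs without a counterpart. The text gives most of these. Gene names were not assigned and no sequence is shown, since the gene and promoter tables at hand are of another build. Computation used Python 3.11.15, numpy 2.4.6, pandas 2.3.3, scipy 1.17.1 and matplotlib 3.10.9, and the overlap and run steps were tested on simulated lists. Alternatives covered the peak threshold, list length, overlap rule, promoter rule, run gap and merging of near peaks.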

Additional observations from a re-analysis of the deposited data

Results flagged for a closer look

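In 4 measures the Taf5l-KO and Taf6l-KO libraries lay on opposite sides of wild type, and with 1 library per genotype the difference was not tested. The number of peaks at promoters was 10230 in Taf5l-KO, 14028 in Taf6l-KO and 10954 in wild-type cells. With lists of equal length it was 10230, 12791 and 9429, and both knockouts were then above wild type. With −log10 q of at least 5 it was 1132, 4369 and 1411, and Taf5l-KO was again below wild type. The median peak width was 541 bp in Taf5l-KO, 395 bp in Taf6l-KO and 464 bp in wild-type cells. The median span of a run was 9.89 kb in Taf5l-KO, 8.39 kb in Taf6l-KO and 9.56 kb in wild-type cells. Peaks of −log10 q of at least 5 numbered 1298 in Taf5l-KO, 4618 in Taf6l-KO and 1789 in wild-type cells. The unique tags of these libraries (5390622, 3842867 and 6295522) and the fragment sizes modelled for them (158, 133 and 136 bp) differed as well, and their part was not tested.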

How the results depend on the processing

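No paired analysis was possible because each genotype has 1 library, and for the same reason no library could be left out. Values are in the order Taf5l-KO, Taf6l-KO and wild type, or Taf5l-KO and Taf6l-KO for shares of wild-type peaks or runs. The number of Taf6l-KO peaks relative to wild type, 0.979 as deposited, was 2.58 with −log10 q of at least 5 and 1.04 after merging peaks closer than 1000 bp, while Taf5l-KO stayed below 1 (0.726 and 0.772). The cause was not tested. With −log10 q of at least 5 the promoter shares were 87.2%, 94.6% and 78.9%, the shares of wild-type promoter peaks overlapped 41.5% and 67.0%, of peaks elsewhere 18.0% and 19.8%, of runs 54.5% and 45.5% (11 wild-type runs only), the shares of peaks in runs 2.31%, 0.606% and 2.35%, and the median widths 956.5, 803.5 and 838 bp. At that threshold Taf6l-KO and wild-type widths were thus closer, and most peaks outside promoters were gone. With the strongest 5000 peaks of each list the promoter shares were 70.3%, 93.9% and 64.7%, the overlapped shares 51.4% and 59.5% at promoters and 18.3% and 6.35% elsewhere, and the shares in runs 3.36%, 0.680% and 3.46%. With lists limited to 30423 peaks, chosen after seeing the data, the promoter shares of Taf6l-KO and wild type were 42.0% and 31.0%, the overlapped share 74.5% at promoters in Taf5l-KO and 29.5% and 22.0% elsewhere, the shares in runs 25.01% in Taf6l-KO and 39.9% in wild type, and the median widths 423 and 499 bp. Under other promoter rules the promoter shares were 37.3%, 37.7% and 30.3% (within 1000 bp of H3K4me3), 34.8% and 36.1% in the knockouts (wild-type H3K4me3 for all), and 32.5%, 33.9% and 23.7% (H3K4me3 found in all 3 genotypes, chosen after seeing the data). With at least 50% of the wild-type peak covered, 55.9% and 66.9% were overlapped at promoters and 14.1% and 10.1% elsewhere. With gaps of at most 2 kb the shares in runs were 20.6%, 15.9% and 26.7% and those of wild-type runs overlapped 35.8% and 34.1%, and with gaps of at most 10 kb the shares in runs were 50.6%, 43.5% and 57.8%. Both knockouts had the higher promoter share under each of these settings, and wild-type promoter peaks were overlapped more often than the rest in each. Absolute levels moved with the threshold, and depth limits what can be said of weak peaks.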
